A study of Mus musculus with 8 samples.

Results

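The comparison set CD4+ T cells of tumour-bearing mice against those of tumour-free mice when all had received an antibody to the interleukin-6 receptor. It comprised the 4 of the series' 8 arrays whose titles name that antibody, 2 from mice bearing a tumour and 2 from mice without one. All mice were C57BL/6. All were given CD4+ T cells carrying a transgenic receptor for ovalbumin, were immunised by transfer of dendritic cells loaded with ovalbumin peptide, and yielded their CD4+ T cells 4 days later. Tumour-bearing hosts carried MCA-OVA, the mouse fibrosarcoma line MCA205 made to express ovalbumin, and anti-IL-6R antibody was injected at the time of immunisation. The other 4 arrays, from tumour-free and tumour-bearing mice under a control antibody, served for reference. The labels describe 2 independent experiments per condition and do not say from which organ the cells came, how pure they were, how many mice each RNA held, or whether transferred cells were separated from the host's own. Below, arrays 5 and 6 are the tumour-free and arrays 7 and 8 the tumour-bearing mice under anti-IL-6R, and arrays 1 to 4 are their control-antibody counterparts in the same order.

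Interleukin-6 acts on T cells through the receptor chain IL-6Rα and the signalling chain gp130, which activate STAT3. In CD4+ T cells this pathway favours follicular helper and Th17 programmes and the transcription factor c-Maf, and it can restrain the interferon-gamma-producing Th1 programme. The series was set up, according to its title, to look at how IL-6 inhibits Th1 cells in tumour-bearing mice. This comparison shows what differed between tumour-bearing and tumour-free mice when both had received the antibody to the receptor. Below, the tumour's effect is a name for that difference. How far the receptor was blocked was not tested.

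Each array was read in 1 colour, and a level is the log2 signal minus that array's 75th percentile. On arrays 5 to 8, 53.1% to 59.8% of probes were well above background, and no spot was saturated. All 8 arrays lay on 1 slide and were read in 1 scan. Tumour-free mice occupied slide rows 1 and 2 and tumour-bearing mice rows 3 and 4, so host and slide row cannot be told apart. Control-antibody arrays occupied slide column 1 and anti-IL-6R arrays column 2, so antibody and slide column cannot be told apart either. The correlation across genes was 0.993 within each group of this comparison and 0.986 to 0.993 between them. Cd4 and Cd3e, which define the labelled cell type, were well above background on all 4 arrays, and so were the B cell gene Cd79a, the macrophage gene C1qa and the globin gene Hbb-bt. In bulk RNA, fewer cells of a type and less RNA per cell cannot be told apart.

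Under anti-IL-6R few genes differed with the presence of a tumour, and those higher were led by immunoglobulin transcripts. Of 20453 genes tested, 67 passed an adjusted p of 0.05 in limma's moderated test (0.328%), 58 of them higher (0.284%) and 9 lower (0.0440%) in tumour-bearing mice. Of the 58, 35 were annotated as immunoglobulin genes and 23 were not, although 1 of the 23, LOC102642252, has its probe within the heavy variable locus. The latter included the monocyte-attracting chemokine genes Ccl2, Ccl7 and Ccl8, the follicular helper transcription factor gene Ascl2 and the costimulatory receptor genes Tnfrsf4 and Tnfrsf9. At an unadjusted p under 0.05 there were 748 genes higher and 913 lower. The groups' arrays did not overlap for 51.2% of all genes, so a lack of overlap by itself says little with 2 arrays a side. The median change over all genes was -0.06 on the log2 scale, and 37.0% of genes lay above 0. Of the 58 genes higher, 49 were well above background in both groups and 9 were so only in tumour-bearing mice, the group where they are high. These 9 were Ccl2, Ccl7, Folr2, Ak4, Txndc8, Gm11627, the IgE constant region and heavy variable segments 1-58 and V1-23. They entered the test through that group alone, so the filter favoured a difference in that direction. In a fit on arrays 5 to 8 alone, 7 of the 67 calls were kept, 6 of them immunoglobulin genes and 1 the lower gene 4930523O13Rik. Without array 7 there were 10 calls, 5 of them among the 67, and without array 8 there were 13, of which 8 were among the 67. Without any one of arrays 1 to 4 there were 27 to 31 calls, and without array 6 there were 187. Only 5 of the 67 calls held with each of the 8 arrays left out in turn: the constant regions of IgG1, IgG2b and IgG2c, heavy variable segment 1-39, and 4930523O13Rik.

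Immunoglobulin genes encode antibodies, which B cells and plasma cells make and T cells do not. A heavy chain joins 1 of many variable segments to a constant region that sets the class: mu and delta in naive B cells, and gamma, epsilon or alpha after class switching. The array reads the heavy chain locus on chromosome 12 and the kappa locus on chromosome 6 with 60-base probes. Several called features are read by probes of nearly the same sequence, so they are not separate pieces of evidence. Of the 31 variable segment features past the threshold, 2 of them for the same segment, kappa 3-10, 16 had a probe that shared an unbroken run of at least 25 bases with the probe of another. The 3 pairs with the longest shared run are shown 5′ to 3′, with that run in capitals. The kappa 12-41 and 12-44 probes share 50 bases, the 2 kappa 3-10 probes overlap by 49, and the heavy V1-23 and 1-15 probes share 39.
Kappa 12-41: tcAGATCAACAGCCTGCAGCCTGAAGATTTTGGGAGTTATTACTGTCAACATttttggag
Kappa 12-44: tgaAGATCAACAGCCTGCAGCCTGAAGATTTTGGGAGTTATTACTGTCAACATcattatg
Kappa 3-10, probe A: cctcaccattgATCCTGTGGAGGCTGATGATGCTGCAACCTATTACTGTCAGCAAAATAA
Kappa 3-10, probe B: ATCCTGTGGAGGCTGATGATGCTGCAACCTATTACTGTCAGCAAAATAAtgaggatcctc
Heavy V1-23: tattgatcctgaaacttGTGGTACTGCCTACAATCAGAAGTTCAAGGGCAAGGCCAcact
Heavy 1-15: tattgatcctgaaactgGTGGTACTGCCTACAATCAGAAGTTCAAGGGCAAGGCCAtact
In the mouse build mm9 given by the file headers, these probes map to chr6:69808423-69808480 (12-41, - strand), chr6:69764635-69764694 (12-44, - strand), chr6:70523153-70523212 and chr6:70523164-70523223 (3-10, + strand), chr12:116002746-116002805 (V1-23, - strand) and chr12:115895649-115895708 (1-15, - strand). The pairs gave like changes: 1.61 for both kappa 12-41 and 12-44, 1.82 and 1.75 for the 3-10 probes, and 2.35 and 1.83 for V1-23 and 1-15.

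The constant regions of IgG1, IgG2b and IgG2c had the largest fitted changes among the immunoglobulin features past the threshold. The IgG1 constant region (immunoglobulin heavy constant gamma 1, probe at chr12:114568594-114568653 of mm9) stood at -3.19 and -3.32 on the tumour-free arrays 5 and 6 and at 1.75 and 1.82 on the tumour-bearing arrays 7 and 8. Both tumour-bearing arrays were far above both tumour-free arrays, a rise of 5.04 ± 0.27 (SE, log2; adjusted p = 0.000398 by limma), or 32.9-fold. The IgG2b constant region (chr12:114544738-114544797) stood at -0.33 and -0.51 against 3.53 and 3.99, a rise of 4.18 ± 0.15 (adjusted p = 3.9e-05 by limma). The IgG2c constant region (chr12:114525496-114525555), which takes the place of IgG2a in C57BL/6 mice, stood at 1.39 and 1.26 against 4.96 and 5.52, a rise of 3.92 ± 0.18 (adjusted p = 0.000147 by limma). Its other probes gave 3.78 and 3.79. All 3 kept their calls with any array left out.

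Of the other constant regions, IgG3 among them, only IgE passed the threshold. The IgE constant region (epsilon, chr12:114509504-114509563) stood at -5.14 and -5.65 on arrays 5 and 6 and -2.25 and -2.29 on arrays 7 and 8. It was not well above background on either tumour-free array, so that it was at least 3.13-fold higher, taking the lowest well-measured signal of the dim arrays as their level (adjusted p = 0.0087 by limma). Without array 7 or array 8 the IgE call was lost (change 2.87 to 3.38 with 1 array left out). IgG3 changed by 1.08 ± 0.58 (adjusted p = 0.52 by limma), with arrays 5 and 6 at -1.65 and -0.14 and arrays 7 and 8 at 0.65 and -0.27, so its groups overlapped. IgA changed by 0.78 ± 0.41, from 4.38 and 5.02 to 5.73 and 5.23, and also missed the threshold (adjusted p = 0.52 by limma). The mu and delta constant regions of naive B cells lay near 0, with 2 features each: 0.03 ± 0.15 and -0.09 ± 0.09 for mu and -0.02 ± 0.15 and -0.05 ± 0.18 for delta. Among light chains, the kappa constant region changed by 0.92 ± 0.15 (adjusted p = 0.064 by limma), lambda constant 1 by 0.28 ± 0.18 and lambda constant 3 by -0.04 ± 0.14.

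**Figure D1:**
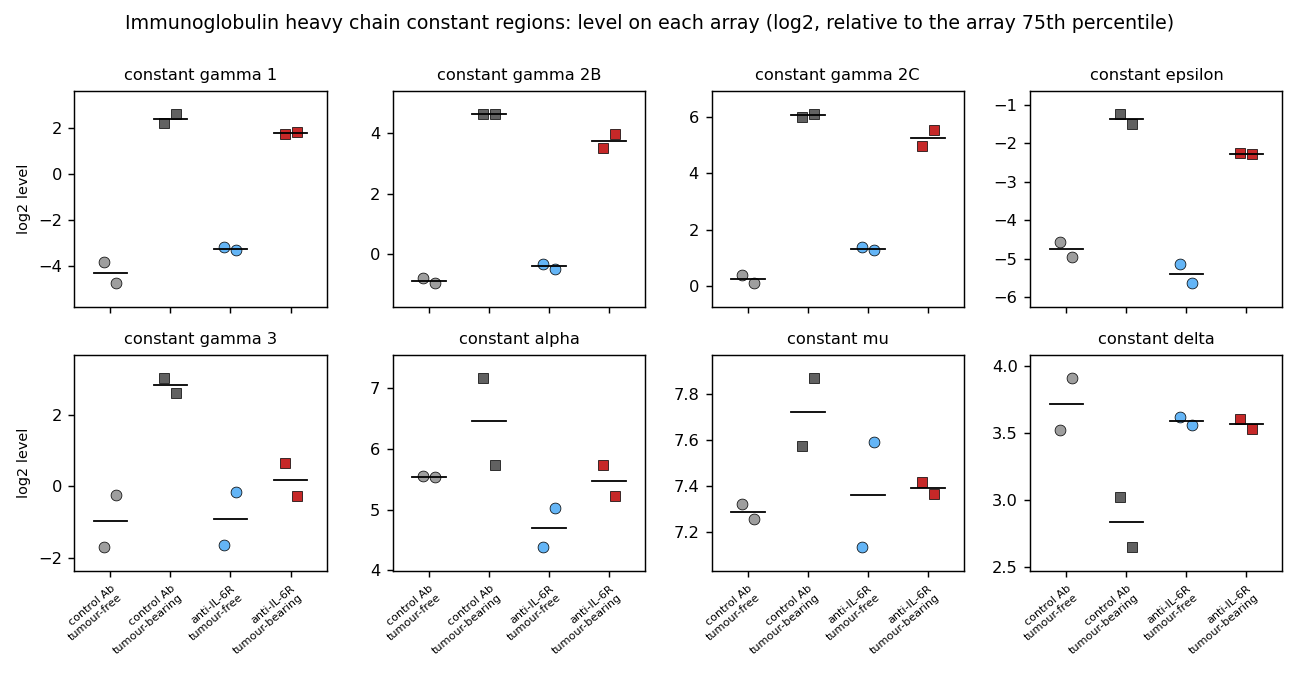
Level of 8 heavy chain constant regions on each of the 8 arrays, as log2 signal relative to the array's 75th percentile; each panel has its own vertical scale, symbols are arrays (circles tumour-free, squares tumour-bearing) and bars are the means of 2 arrays. For gamma 1, gamma 2B, gamma 2C and epsilon both tumour-bearing arrays under anti-IL-6R lie above both tumour-free arrays, while for gamma 3, mu and delta the groups overlap.

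Of the variable segments, 31 passed the threshold, all higher in tumour-bearing mice. Of 68 measured heavy variable segments 67 lay above 0 (median 1.53) and 22 passed the threshold, all higher. Of 84 kappa variable segments 83 lay above 0 (median 0.88) and 9 passed. Segment heavy 1-39 stood at -2.36 and -2.20 on arrays 5 and 6 and at -0.38 and -0.35 on arrays 7 and 8, a rise of 1.91 ± 0.13 (adjusted p = 0.0016 by limma). Heavy 1-58 was at least 2.88-fold higher and dim on both tumour-free arrays (adjusted p = 0.03 by limma); its call was lost without array 1, 2, 3, 4, 7 or 8 (2.37 to 3.37). The exceptions to the direction were heavy 2-9-1 at -0.43 ± 0.71 and kappa 8-16 at -0.80 ± 0.59. In all, 163 of 169 immunoglobulin features had a change above 0 and 35 passed, against 0.284% of all genes, and 129 of the 169 were well above background in both groups. The other 40, among them 25 heavy and 14 kappa variable features, entered the test through the tumour-bearing group alone, as did 869 of all 20453 genes. For these the filter favoured a change above 0, so the counts above 0 and the medians lean that way. The number of immunoglobulin genes called depended on single arrays: 4 were called without array 7, 5 without array 8, 12 to 15 without any one of arrays 1 to 4, 25 without array 5 and 85 without array 6.

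The genes of antibody-secreting cells did not pass the threshold. Plasma cell markers were measured for 9 of 11, all 9 with a change above 0 (median 0.24 against -0.06 for all genes) and none called by limma, with 3 higher at an unadjusted p under 0.05. Derl3, an endoplasmic reticulum protein of secretory cells, changed by 0.73 ± 0.13 (adjusted p = 0.068 by limma), and Jchain, which links IgM and IgA into polymers, by 1.26 ± 0.29 (adjusted p = 0.24 by limma). Their summed linear level (in units of the array's 75th percentile) was 34.9 and 38.8 on arrays 5 and 6 and 46.7 and 43.7 on arrays 7 and 8. The defining plasma cell genes Sdc1 and Tnfrsf17 were below the filter. B cell markers were measured for 19 of 19 with a median of 0.02 and no call by limma (1 higher at an unadjusted p under 0.05), and summed to 100.7 and 100.4 on arrays 5 and 6 and 103.9 and 97.4 on arrays 7 and 8. The part of these cell types in the immunoglobulin result was not tested.

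Outside the immunoglobulin loci, 4 CC chemokine genes passed the threshold, all higher in tumour-bearing mice. Ccl2, Ccl7 and Ccl8 encode CC chemokines that draw in monocytes, and their probes lie within chr11:81850650-81930167 of mm9. Ccl8 stood at -0.88 and 0.06 on arrays 5 and 6 and at 2.56 and 2.29 on arrays 7 and 8, a rise of 2.84 ± 0.28 (adjusted p = 0.0128 by limma). Ccl7 stood at -5.85 and -6.03 against -2.82 and -2.40. It was dim on both tumour-free arrays, so that it was at least 2.48-fold higher (adjusted p = 0.0115 by limma). Like Ccl2, it entered the test only through the tumour-bearing group, where it was bright, so the filter favoured that direction. Ccl2 stood at -4.09 and -3.14, the former dim, against -1.66 and -1.19, a change of 2.19 ± 0.32 (adjusted p = 0.0421 by limma). None of the 3 overlapped between groups, which was also so for 51.2% of all genes. Ccl9, another CC chemokine gene on the same chromosome (chr11:83388223-83388282), stood at -0.47 and -0.17 against 0.83 and 0.84, a rise of 1.15 ± 0.15 (adjusted p = 0.0282 by limma). The calls of Ccl7 and Ccl8 were lost without array 7 or array 8 (changes of 3.12 to 3.54 and 2.36 to 3.31 with 1 array left out). That of Ccl9 was lost without array 3, 4, 5, 7 or 8 (1.00 to 1.30) and that of Ccl2 without any array but 6 (1.71 to 2.66). The T cell chemokine genes Ccl3 and Ccl4, with changes of 0.66 ± 0.17 and 0.60 ± 0.22, did not pass (adjusted p = 0.33 and 0.52 by limma).

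Several genes known from macrophages rose beside them. Cd209b, a C-type lectin of marginal zone and lymph node macrophages, stood at -0.06 and 0.50 against 2.01 and 1.79, a rise of 1.68 ± 0.18 (adjusted p = 0.0155 by limma), and a second probe gave 1.55. Folr2, folate receptor beta, stood at -3.86 (dim) and -3.31 against -1.89 and -1.98, a rise of 1.65 ± 0.25 (adjusted p = 0.0475 by limma). Lyz2, lysozyme of myeloid cells, stood at 6.43 on both tumour-free arrays against 7.25 and 6.95, a rise of 0.67 ± 0.10 (adjusted p = 0.0418 by limma). The macrophage and monocyte list as a whole did not move with them: of 23 measured of 23, 1 was called (Lyz2), 8 had a change above 0, and the median was -0.17. C1qa, Csf1r and Adgre1 had changes of -0.17, -0.24 and -0.34. Timd4 and Marco, of tissue macrophages, had 0.67 and 0.61, neither past the threshold. The summed level of the list was 380.4 and 450.1 on arrays 5 and 6 and 476.2 and 423.4 on arrays 7 and 8, so the groups overlapped. The part of macrophages in the chemokine and lectin result was not tested. The call of Cd209b was lost without array 7 or 8 (1.40 to 1.96), that of Folr2 without any array but 6 (1.38 to 1.92) and that of Lyz2 without any array but 8 (0.52 to 0.82).

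Among other called genes, Stfa3, a cysteine protease inhibitor of granulocytes, stood at -2.65 and -2.73 against -0.25 and -0.73, a rise of 2.20 ± 0.20 (adjusted p = 0.01 by limma). With 1 array left out its call was lost only without array 7 (1.96 to 2.44). The call was also lost in the fit on the 4 anti-IL-6R arrays only. Stfa3 was the 1 gene called among 22 measured of 27 neutrophil and granulocyte markers, whose median was -0.05. Their summed level was 174.3 and 311.5 on arrays 5 and 6 and 208.6 and 218.3 on arrays 7 and 8. The granule genes Camp and Ltf had changes of -0.11 ± 0.23 and -0.28 ± 0.34, and the alarmin genes S100a8 and S100a9 had -0.91 and -0.84, all short of the threshold. Chil3, a chitinase-like protein of myeloid cells, changed by 1.76 ± 0.28 (adjusted p = 0.058 by limma). Tppp3, a microtubule-binding protein gene, rose by 1.59 ± 0.20 (adjusted p = 0.027 by limma), from -0.32 and 0.12 to 1.56 and 1.42. Ak4, a mitochondrial adenylate kinase gene, was dim on both tumour-free arrays and at least 2.94-fold higher (adjusted p = 0.0143 by limma). Txndc8, a thioredoxin-domain gene, and Gm11627 were at least 2.58-fold and 7.93-fold higher, and dim on all 6 arrays other than 7 and 8. Tppp3 lost its call without array 1, 2, 5, 7 or 8 (1.37 to 1.81), Ak4 and Gm11627 without array 7 or 8 (2.79 to 3.13 and 3.68 to 4.63), and Txndc8 with any array left out (2.78 to 4.07). The 3 remaining genes not annotated as immunoglobulin, AF240166, LOC102642252 and ENSMUST00000197160 (annotated as MRP3 mRNA, an uncharacterized transcript of chromosome 12 and a predicted gene of chromosome 3), rose by 1.83 ± 0.22, 1.50 ± 0.22 and 1.64 ± 0.24, and each lost its call without at least 4 of the 8 arrays, 7 and 8 among them, with changes that stayed above 1 on the log2 scale. The probe of LOC102642252 (chr12:116861356-116861415, - strand) lies among those of the called heavy variable segments.

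Among the T cell lists, the genes past the threshold were Ascl2 of the follicular helper list and Tnfrsf4, Tnfrsf9 and Klrg1 of the regulatory list. The latter are not particular to that list. Tnfrsf4 and Tnfrsf9 were also the 2 genes called of 25 measured in the T cell activation list. Klrg1 was also the 1 called of 19 measured inhibitory receptor genes, where 0.284% of all genes were called higher. Ascl2, a basic helix-loop-helix factor that starts the follicular helper programme, stood at -2.56 and -2.40 on arrays 5 and 6 and at -0.66 and -0.71 on arrays 7 and 8. This was a rise of 1.80 ± 0.18 (adjusted p = 0.0131 by limma), or 3.47-fold, lost without array 7 or 8 (1.71 to 1.88). It was the only 1 of 19 measured follicular helper genes past the threshold, and the list's median was 0.07. Il21, the cytokine of follicular helper cells, stood at -2.47 and -2.30 against -0.90 and -0.33, a change of 1.76 ± 0.30 that missed the threshold (adjusted p = 0.067 by limma). Its other probe, dimmer and not kept by the filter, stood at -3.5 and -4.0 against -4.0 and -3.6, so its groups overlapped. Cxcl13, a B cell chemoattractant, was dim on both tumour-free arrays, and at least 2.29-fold higher without passing the threshold (adjusted p = 0.053 by limma). It entered the test through the tumour-bearing group alone, so the filter favoured that direction. Pdcd1, which encodes PD-1, stood at 1.44 and 1.35 against 2.09 and 1.99, a change of 0.64 ± 0.12 (adjusted p = 0.1 by limma). The lineage genes lay closer to 0, with Bcl6 at 0.08 ± 0.09, the homing receptor gene Cxcr5 at -0.08 ± 0.16 and the nuclear factor gene Tox2 at 0.01 ± 0.11.

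In the regulatory T cell list 3 of 23 measured genes passed, all higher, 18 had a change above 0 and the median was 0.22, where 0.284% of all genes were called higher and 37.0% lay above 0. Tnfrsf4, which encodes the costimulatory receptor OX40, stood at 3.87 and 3.86 against 4.41 and 4.30, a rise of 0.49 ± 0.07 (adjusted p = 0.0411 by limma). Tnfrsf9, which encodes 4-1BB, stood at 1.17 and 1.07 against 1.74 and 1.75, a rise of 0.63 ± 0.09 (adjusted p = 0.0366 by limma). Klrg1, an inhibitory receptor of terminally differentiated lymphocytes, stood at 0.50 and 0.80 against 1.44 and 1.41, a rise of 0.77 ± 0.11 (adjusted p = 0.0411 by limma). These 3 genes also mark activated T cells, and Foxp3, the lineage factor, changed by 0.24 ± 0.09 (adjusted p = 0.52 by limma). Itgae, the CD103 integrin chain, changed by 0.70 ± 0.11 (adjusted p = 0.052 by limma), Tigit by 0.82 ± 0.17 and Ctla4 by 0.66 ± 0.17. For these genes the groups' arrays did not overlap, which was also so for 51.2% of all genes. Tnfrsf4 and Tnfrsf9 lost their calls with any array left out (0.43 to 0.54 and 0.58 to 0.68) and Klrg1 with any but array 6 (0.62 to 0.92). Pan T cell markers, 13 measured of 14, had a median of -0.16 (-0.04 with quantile normalization), none above 0 and none called by limma (2 lower at an unadjusted p under 0.05), with summed levels of 1201 and 1144 against 1119 and 1000.1. Penk, Fut7, Cebpa and Pla2g2d, named after their values were seen, were the other called genes under 2-fold, with rises of 0.84 ± 0.08, 0.95 ± 0.09, 0.96 ± 0.13 and 0.66 ± 0.08. They encode proenkephalin, a fucosyltransferase that makes selectin ligands, a myeloid transcription factor and a secreted phospholipase. Penk lost its call without array 7 or 8 (0.77 to 0.90), Fut7 without 7 (0.86 to 1.04), and Cebpa and Pla2g2d with any array left out (0.89 to 1.02 and 0.64 to 0.69).

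**Figure D2:**
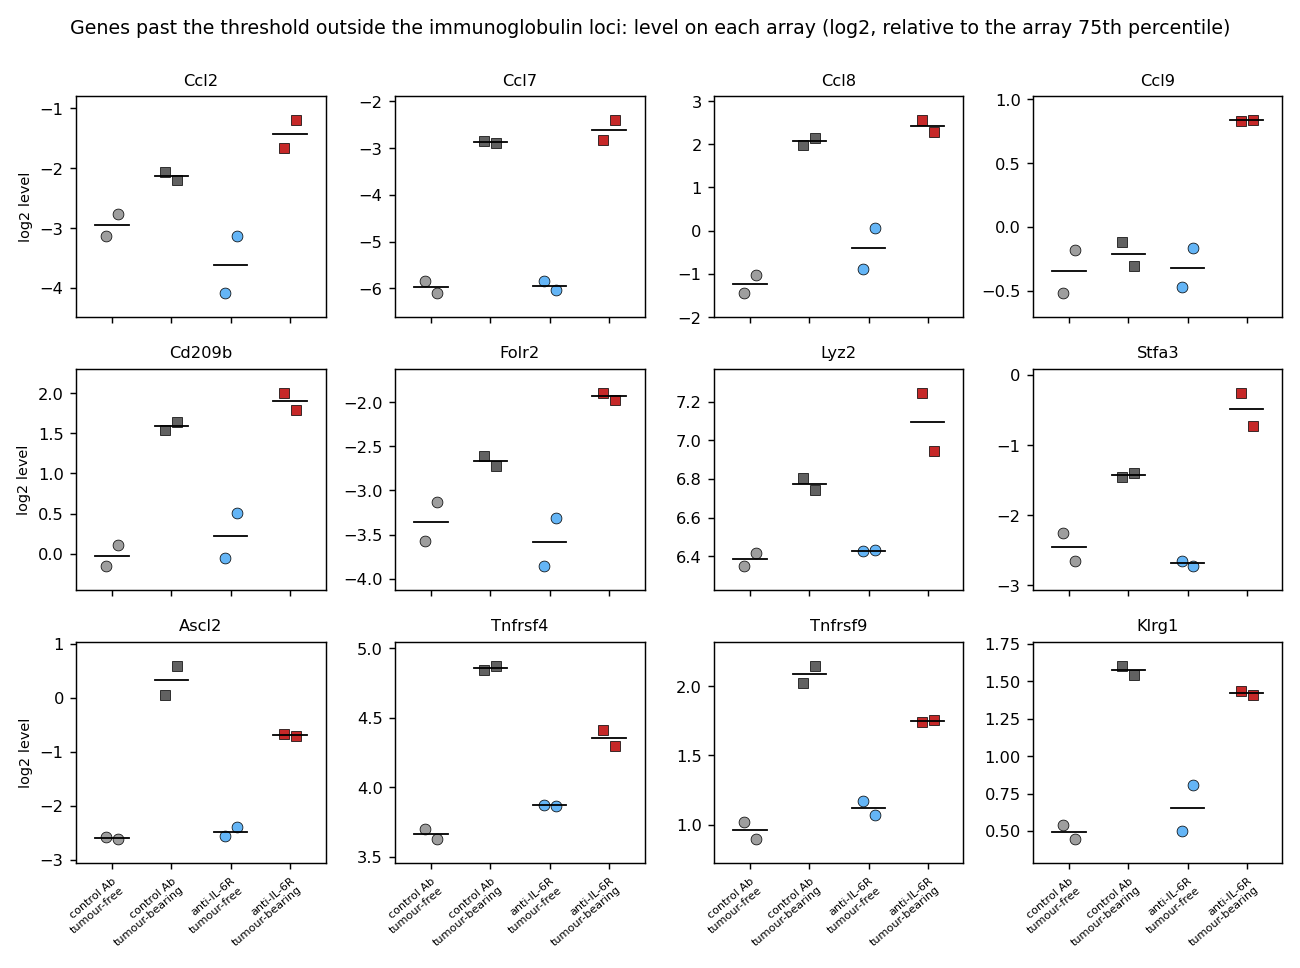
Level of 12 genes past the threshold outside the immunoglobulin loci on each of the 8 arrays, as log2 signal relative to the array's 75th percentile; vertical scales differ between panels, circles are tumour-free and squares tumour-bearing mice, and bars are the means of 2 arrays. In each panel both tumour-bearing arrays under anti-IL-6R lie above both tumour-free arrays, by 2.84 on average for Ccl8 and by 0.49 for Tnfrsf4, and Ccl7 was not well above background on the tumour-free arrays.

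The genes of the IL-6, c-Maf and Th1 axes did not pass the threshold. Maf, which encodes c-Maf, stood at 1.80 and 1.79 on arrays 5 and 6 and at 2.00 and 1.86 on arrays 7 and 8, a change of 0.13 with a 95% interval from -0.08 to 0.35. Its other probes gave 0.08 and 0.40. Of the 15 measured of 17 genes listed as c-Maf or a reported target of it, 13 lay above 0 (median 0.34) and none was called by limma. At an unadjusted p under 0.05 by limma, 8 were higher and 0 lower, against 748 higher and 913 lower of all 20453 genes. The list is not separate from those above, which also hold its members Il21, Pdcd1, Il10, Tigit, Ctla4 and Icos. Il10, a suppressive cytokine gene and a c-Maf target, stood at -4.79 (dim) and -3.55 against -2.30 and -1.75, a change of 2.15 ± 0.42 (adjusted p = 0.11 by limma), past the threshold only without array 6. Il10 was 1 of 2 genes of the c-Maf list that entered the test through the tumour-bearing group alone, so the filter favoured that direction. Il4, the Th2 cytokine gene, stood at -0.86 and -0.87 against -0.36 and -0.25, a change of 0.56 ± 0.17 (adjusted p = 0.52 by limma). Icos, a costimulatory receptor gene, changed by 0.29 ± 0.08 and Lag3, an inhibitory receptor gene, by 0.40 ± 0.17, or 0.75 ± 0.15 by its other, dimmer probe. Il6ra and Il6st, the receptor chains, had changes of 0.01 (interval -0.20 to 0.22) and -0.09 (-0.30 to 0.12). Stat3 had -0.17 (-0.34 to 0.01) and Socs3, a feedback inhibitor induced by STAT3, -0.26 (-0.79 to 0.28). No probe of Il2, Il6 or Il17a was well above background on both arrays of either group, so they were not tested.

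On the Th1 side, Ifng, which encodes interferon-gamma, stood at 1.63 and 1.98 on arrays 5 and 6 and 1.86 and 2.47 on arrays 7 and 8, and its groups overlapped. Its change was 0.36 with an interval from -0.22 to 0.94. Tbx21, the gene of the Th1 factor T-bet, changed by -0.24 (-0.53 to 0.05), Stat4, which relays IL-12, by -0.13 (-0.37 to 0.12), Il12rb1 by -0.10 (-0.32 to 0.12), Il12rb2 by 0.26 (-0.27 to 0.78) and Tnf by 0.22 (-0.09 to 0.52). None of the 23 measured of 24 Th1 genes was called by limma (3 higher and 1 lower at an unadjusted p under 0.05) and their median was 0.02. Gzmb, the cytotoxic protease granzyme B, was the largest change among effector genes, from 0.33 and 0.85 to 1.99 and 1.93, at 1.37 ± 0.24 (adjusted p = 0.068 by limma), past the threshold only without array 6. Eomes, Gata3 and Prdm1, lineage factor genes of cytotoxic, Th2 and effector cells, had changes of 0.14 ± 0.12, -0.08 ± 0.09 and 0.24 ± 0.14, and the CD40 ligand gene Cd40lg 0.07 ± 0.16. Th2 genes, 12 measured of 14, had a median of -0.02 and Th17 genes, 10 measured of 15, one of 0.03, with no call in either (4 higher and 1 lower, and 1 higher, at an unadjusted p under 0.05 by limma).

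**Figure D3:**
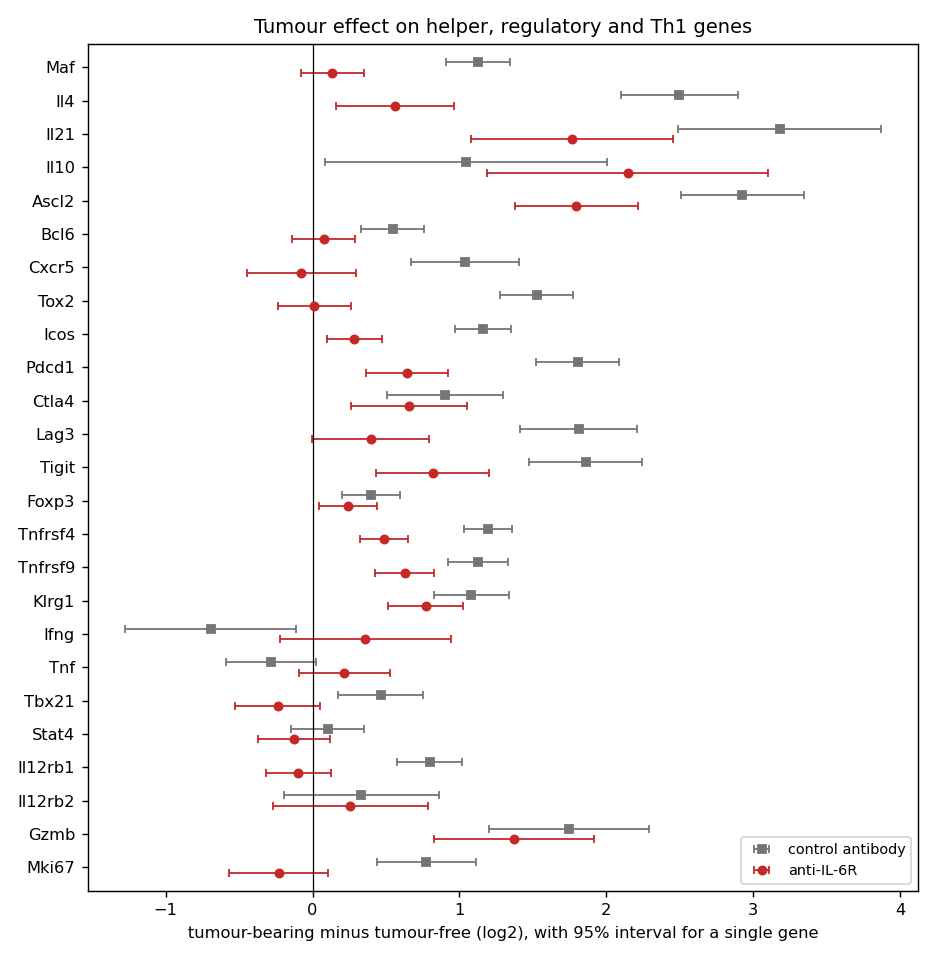
Change between tumour-bearing and tumour-free mice (log2) for 25 helper, regulatory and Th1 genes under anti-IL-6R (circles) and under control antibody (squares), with the 95% interval of each single gene, not adjusted for the number of genes. Under anti-IL-6R the values for Maf, Bcl6, Cxcr5, Tox2, Ifng and the IL-12 receptor genes have intervals that include 0, while those of Il21 and Ascl2 lie above 1.

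Most genes of proliferation, oxidative phosphorylation, cholesterol synthesis and the proteasome lay slightly below 0, each by less than the test could call. Glycolysis genes, 22 measured of 22, had a median of -0.08 with 9 above 0, close to the -0.06 of all genes. The low values were not particular to proliferation and metabolism. Proximal TCR signalling genes, 22 of 22, had a median of -0.13 with 1 above 0. Mitosis and spindle genes, 40 measured of 40, had a median of -0.24 with 1 above 0, and the proliferation marker Mki67 changed by -0.23 ± 0.15. DNA replication genes, 39 of 40, had a median of -0.20, also with 1 above 0. Oxidative phosphorylation genes, 36 of 43, had a median of -0.18, none above 0 and none overlapping between groups, where 51.2% of all genes did not overlap. Cholesterol synthesis genes, 23 of 24, had a median of -0.24, with the squalene epoxidase gene Sqle at -0.44 ± 0.10 (adjusted p = 0.235 by limma). Proteasome genes, 37 of 38, had a median of -0.16. None of these lists held a gene called by limma. At an unadjusted p under 0.05 by limma, 4 mitosis, 8 replication, 9 oxidative phosphorylation, 12 cholesterol and 6 proteasome genes were lower, and none in the same lists was higher. Of all 20453 genes, 913 were lower and 748 higher by that measure. The sizes depended on the scaling: quantile normalization moved the oxidative phosphorylation median to -0.07 and the proteasome median to -0.05, while the median of all genes moved from -0.06 to -0.02. The mitosis median was -0.04 without array 5 and -0.41 without array 6. The AP-1 and immediate early list went the other way, with 24 of 27 measured above 0, 11 of them at an unadjusted p under 0.05 by limma, and a median of 0.26 (0.13 to 0.47 with 1 array left out). Its largest changes were in the stress factor gene Atf3, from -1.66 and -0.29 to 0.08 and 0.76, and in Fosb, a partner of Jun, from 0.73 and 1.42 to 1.95 and 2.66. Neither passed (adjusted p = 0.5 and 0.45 by limma).

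The 9 genes lower in tumour-bearing mice were 4930523O13Rik, 2610027K06Rik, Prkg1, Zpld2, Dcbld2, Gpr153, Olfr913, a ribosomal protein pseudogene (ENSMUST00000181557) and AK038577. The largest, the RIKEN transcript 4930523O13Rik, stood at -1.06 and -0.82 on arrays 5 and 6, at -5.96 and -6.36 on arrays 7 and 8, and between -6.46 and -5.87 on the control-antibody arrays. Only the tumour-free anti-IL-6R arrays were bright, and the gene was at least 8.81-fold lower in tumour-bearing mice (adjusted p = 0.0028 by limma). It and 7 of the others entered the test only through the tumour-free group, where they were bright, so a difference in that direction was set by the filter. Prkg1, a cGMP-dependent protein kinase gene, stood at -2.69 and -1.38 against -6.01 and -6.34, at least 4.12-fold lower (adjusted p = 0.027 by limma). Of the 9 probes, 8 were not well above background on any of the 6 arrays other than 5 and 6, while that of AK038577 was well above it on 3 of the 6. Of the 4 other probes for Prkg1, 1 was well above background on any array, and of the single other probes for Dcbld2 and 2610027K06Rik, none was. Probes bright in 1 group only, well above background on both of its arrays and on no other and at least 4-fold above all 6 others, numbered 7 in the tumour-free and 8 in the tumour-bearing control-antibody group, 13 in the tumour-free anti-IL-6R group and 7 in the tumour-bearing anti-IL-6R group. What sets such probes was not tested. Prkg1 lost its call without any array but 5 (-4.79 to -3.48), Dcbld2, Gpr153 and AK038577 with any array left out (-3.34 to -2.97, -3.34 to -2.62 and -2.35 to -1.92). Those of 2610027K06Rik, Zpld2, Olfr913 and the pseudogene were each lost without 3 to 5 of the arrays, among them 5, 7 and 8 (-4.82 to -4.07, -4.51 to -3.70, -3.10 to -2.58 and -2.96 to -2.39).

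The same host comparison under control antibody, made on other arrays of the same slide, called 1266 genes (6.19%). The 2 comparisons share no array, although they share the estimate of spread. Of the 67 genes called under anti-IL-6R, 49 were also called under control antibody, all in the same direction, which was 73.1% of the former and 3.87% of the latter. Across all 20192 genes that are no receptor or antibody segment, called or not, r between the 2 sets of changes was -0.20. This is a description across genes that are not independent, and it does not describe the called genes. Of the 23 genes not annotated as immunoglobulin and called higher under anti-IL-6R, 9 were not called under control antibody. The 125 immunoglobulin genes raised under control antibody all had a change above 0 under anti-IL-6R, with a median of 1.22. The 738 other genes raised under control antibody had a median of -0.01 under anti-IL-6R, and 357 of them lay above 0. Since these sets were chosen on the control-antibody values, their control-antibody medians of 1.71 and 0.66 are large by that choice.

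**Figure D4:**
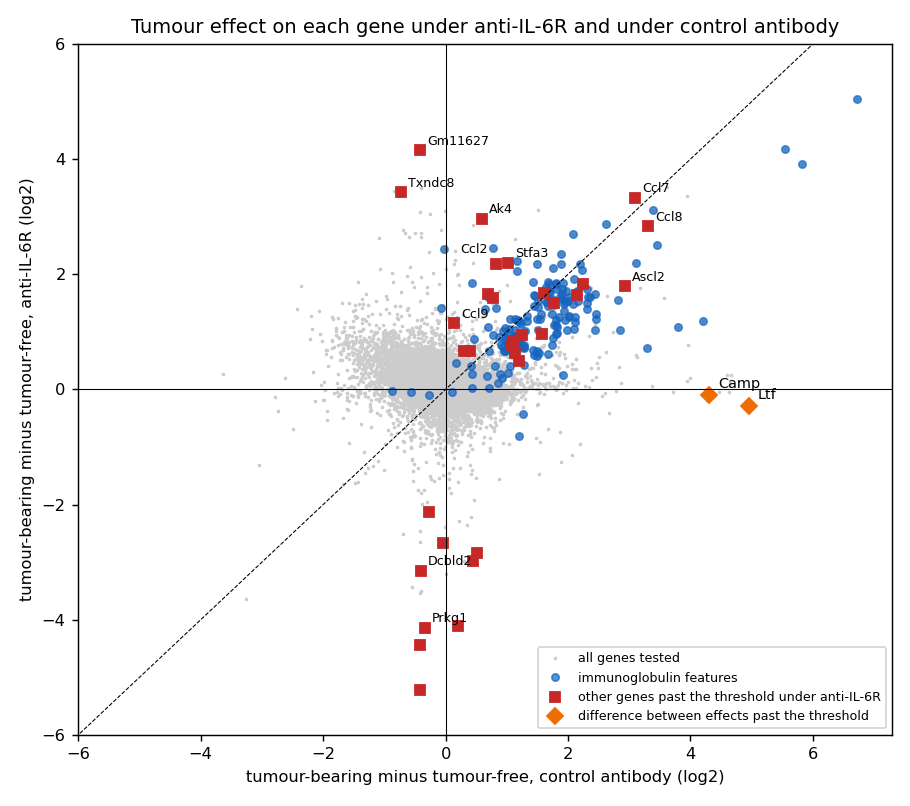
Change between tumour-bearing and tumour-free mice (log2) for 20453 genes, under control antibody (horizontal) and under anti-IL-6R (vertical); the dashed line marks equal changes. Of the 35 immunoglobulin features past the threshold under anti-IL-6R 28 lie below that line, the chemokine gene Ccl8 lies close to it, and Camp and Ltf lie at -0.11 and -0.28 on the vertical axis against 4.31 and 4.95 on the horizontal one.

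The difference between the tumour's effects under the 2 antibodies was tested as an interaction over all 8 arrays. It passed the threshold for 2 genes (0.00978%), with 5279 genes at an unadjusted p under 0.05. Both are neutrophil granule genes. Camp, which encodes the antimicrobial peptide cathelicidin, stood between -1.83 and -1.27 on all 4 anti-IL-6R arrays, while under control antibody it stood at -1.71 and -1.16 without and 2.95 and 2.81 with a tumour. The tumour's effect on it was lower under anti-IL-6R by 4.42 ± 0.33 (adjusted p = 0.0171 by limma). Ltf, which encodes the iron-binding protein lactoferrin, stood between -3.63 and -2.82 on the anti-IL-6R arrays, and at -3.95 and -2.95 against 1.56 and 1.45 under control antibody. The difference was -5.23 ± 0.48 (adjusted p = 0.0401 by limma), lost without array 3 or 8 (-5.73 to -4.74). The call of Ltf was also lost with no filter on dim probes (adjusted p = 0.107 by limma), no intensity trend (0.0534) or the mean of a gene's probes (0.0542), and that of Camp with no filter (0.104). The neutrophil list had a median of -0.05 under anti-IL-6R and 0.99 under control antibody, and the erythroid list, 22 measured of 30, had 0.08 and 1.88. Summed erythroid levels were 1253 and 1484 against 1465 and 1199 under anti-IL-6R, and 509.2 and 920.6 against 1833 and 1201 under control antibody.

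For T cell genes the interaction did not reach the threshold, but several single-gene intervals, not adjusted for the number of genes, excluded 0. Over all genes tested, 25.8% had an unadjusted p under 0.05 for this difference by limma. An interval without 0 therefore does not by itself set a gene apart. The tumour's effect on Maf was 0.13 under anti-IL-6R and 1.13 under control antibody, a difference of -0.99 with an interval from -1.30 to -0.69 (adjusted p = 0.06 by limma). For Il4 the effects were 0.56 and 2.50, a difference of -1.94 (-2.50 to -1.37, adjusted p = 0.06 by limma), and for Icos 0.29 and 1.16, a difference of -0.88 (-1.14 to -0.61, adjusted p = 0.06 by limma). Tox2 had 0.01 and 1.53, a difference of -1.51 (adjusted p = 0.05007 by limma). Its other probe, dimmer, gave a difference of 0.13, so the probes of Tox2 disagreed. Genes with a difference above 0 included Jun at 1.14 (0.80 to 1.49), the transcription factor gene Klf4 at 1.94, the receptor gene Notch1 at 1.48, the BH3-only death gene Bmf at 1.29 and the chemokine gene Ccl3 at 1.97, each with an adjusted p from 0.0501 to 0.06 by limma. The protease gene Prss12 had 1.56 and the RIKEN transcript 4932431P20Rik 1.35. The long non-coding RNA Firre had 3.90 by the probe used and 0.18 by its other probe, and the other probe of Bmf gave 0.21, so the probes of these genes disagreed. Below 0 were also Mpo, myeloperoxidase, dim on arrays 5 and 6, at -2.56, the erythroid factor gene Gata1 at -1.02, the water channel gene Aqp1 at -3.30 and Apol11b at -4.51. For Ifng the difference was 1.05 (0.23 to 1.87, adjusted p = 0.13 by limma), from -0.69 under control antibody to 0.36. Other Th1 genes did not share that direction. Tbx21 had -0.70 and Il12rb1 -0.90 (adjusted p = 0.093 and 0.069 by limma), while Tnf had 0.50 (0.15). Of the 23 measured Th1 genes, 8 had a difference above 0, and the median was -0.18 against -0.09 for all genes. For Ccl8 the difference was -0.47 (-1.38 to 0.44, adjusted p = 0.48 by limma). Ccl7 was not well above background in tumour-free mice under either antibody, so its effects give no exact difference. The IgG2b and IgG2c constant regions differed by -1.36 and -1.90 (adjusted p = 0.069 and 0.06 by limma). For IgG1, which was not well above background in tumour-free mice under control antibody, the fitted difference of -1.68 (adjusted p = 0.085 by limma) depends on a signal at background.

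**Figure D5:**
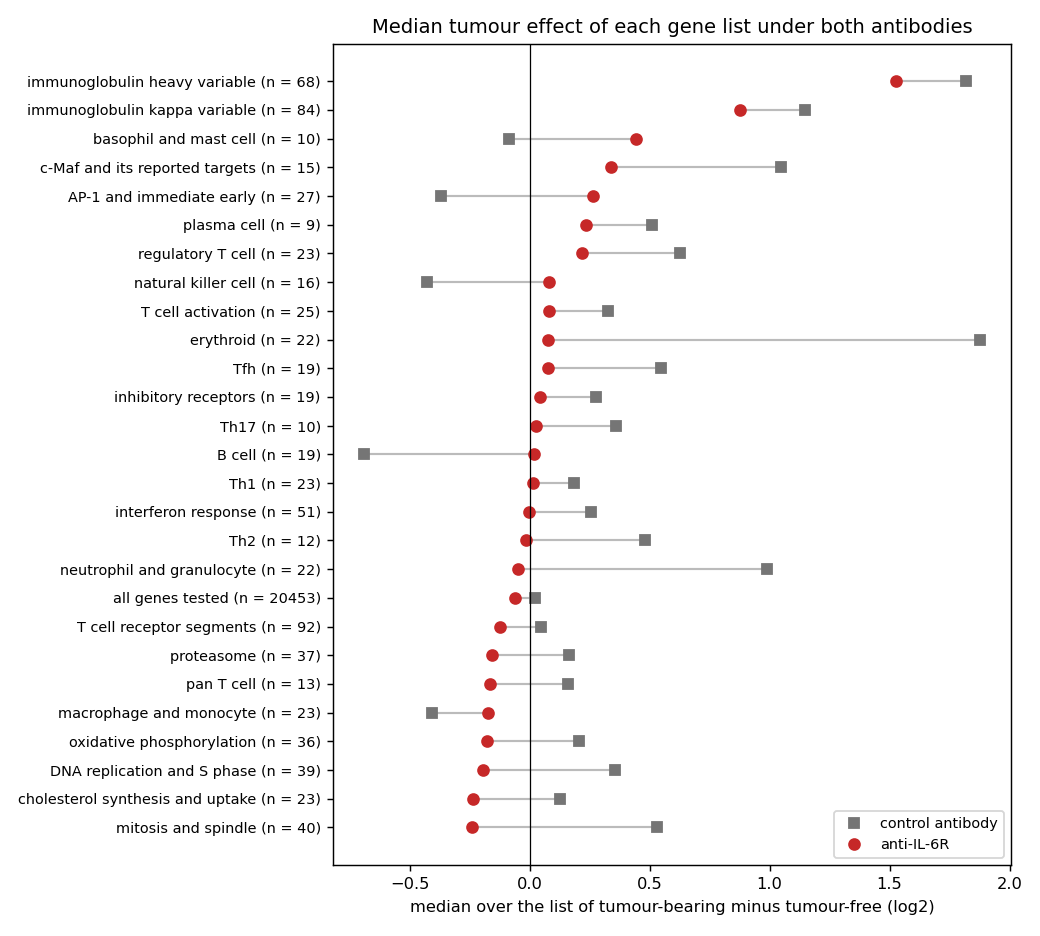
Median change between tumour-bearing and tumour-free mice (log2) over the measured genes of each list and over all genes tested, under anti-IL-6R (circles) and control antibody (squares), ordered by the anti-IL-6R value; the number of genes measured is beside each name. The immunoglobulin variable segments have the highest medians under anti-IL-6R, 1.53 and 0.88, and mitosis and spindle genes the lowest, -0.24.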

How the data were processed

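Each array is Agilent Feature Extraction output (version 10.10.1.1, per the submitters' processing notes). The intensity used, the deposited processed signal of each spot, is background-subtracted and detrended per the file headers, which also give probe positions in build mm9. The authors' deposited table of log2 values served as an alternative and equals the values computed here up to a shift of at most 0.00815. Labelling started from 0.1 µg RNA, per the labels. Control spots and outlier-flagged spots were left out, spots of a probe averaged as log2, and each array's 75th percentile (500.4 to 526.5) subtracted. Probes were kept where 1 compared group, or both, had them well above background on its 2 arrays, and the brightest stood for each gene. Of 56587 probes, 33895 were named through RefSeq by accession, 9454 by symbol and 488 by synonym, the rest by the file. limma 3.58.1 fitted 4 group means to all 8 arrays with an intensity trend (4 residual degrees of freedom), adjusted by Benjamini-Hochberg over 20453 genes, and was tested on simulated data. Errors are SE, and intervals cover 95% for 1 gene. A sum over list genes is of linear signals. The named genes are up to 15 per direction past the threshold by at least 2-fold, with non-overlapping arrays, an official-style symbol and no antibody or T cell receptor segment, the same for the difference with up to 8 (by smallest p where fewer than 5 pass), 29 genes of interest, and the leading 6 members of the lists described (48 were fixed); immunoglobulin features and genes outside this rule were chosen after their values were seen. Members and lists were chosen with earlier results of these data known. With 2 arrays a group the number of arrays limits precision, and p-values measure the spread between these arrays, which may be technical.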

Additional observations from a re-analysis of the deposited data

Results flagged for a closer look

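The tumour's effect differed between the antibodies past the threshold for Camp and Ltf, both genes of neutrophil granules. The difference (anti-IL-6R minus control antibody) was -4.42 on the log2 scale for Camp and -5.23 for Ltf. No group held enough arrays to look for single arrays that stand apart.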

How the results depend on the processing

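No paired analysis was possible because the groups share no replicate number. The tumour effect under anti-IL-6R called 67 genes, 58 higher and 9 lower. It called 52 with quantile normalization, 75 with normexp background correction, 66 with the mean of a gene's probes, 67 with the deposited values and 47 with probes bright on all 4 arrays, where 1 was lower. It called 19 with no filter on dim probes (15 higher, 4 lower) and 7 from the 4 anti-IL-6R arrays only (6 higher, 1 lower), which have 2 residual degrees of freedom. All 7 were among the 67, and the 6 higher ones were immunoglobulin genes. None of the 23 other genes called higher, chemokine, macrophage and T cell genes among them, kept its call in that fit. Without an intensity trend the tumour effect called 49, with 38 higher. With 1 array left out the count ran from 10 to 187, with 5 to 131 higher and 1 to 56 lower. Where 1 array was left out, the lone array of its group was assumed to vary like the others. No called gene with a value changed sign under any of these 16 settings. The difference between the antibodies called 2 genes, and 4 with quantile normalization, 11 with normexp, 0 with no filter (6069 at an unadjusted p under 0.05 by limma), 5 with probes bright on all 4 arrays, 11 without a trend, 1 with the mean of probes and 3 to 579 with 1 array left out. Beyond fewer arrays or other genes tested, the cause of these shifts was not tested. Signals near background limit the dim probes.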

Other observations

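T cell receptor segments, whose mRNA T cells make, were measured for 92 features. None passed the threshold by limma (1 higher and 11 lower at an unadjusted p under 0.05), 76 had a change below 0 under anti-IL-6R, and the median was -0.13 against 0.05 under control antibody. Basophil and mast cell markers, 10 measured of 13, had a median of 0.44 with 9 above 0 and none called by limma (3 higher at an unadjusted p under 0.05). Of the 10, 3 entered the test through the tumour-bearing group alone, as did 869 of all 20453 genes. For these 3 the filter favoured a change above 0. The mast cell proteases Cpa3, Tpsb2 and Mcpt4 had changes of 0.99, 0.90 and 1.01. The summed level of the list was 4.73 and 7.82 on arrays 5 and 6 and 7.51 and 10.6 on arrays 7 and 8, so the groups overlapped. Interferon response genes, 51 measured of 52, had a median of -0.0029 with 25 above 0 and none called by limma (1 lower at an unadjusted p under 0.05). Natural killer cell markers had a median of 0.08 and dendritic cell markers one of 0.15, with no gene called by limma in either (1 lower and 0 at an unadjusted p under 0.05).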
